A study of Homo sapiens with 16 samples.

Results

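Translation initiation factor genes were taken from the deposited table as protein-coding rows whose symbol begins with EIF followed by a digit from 1 to 6, leaving out the kinase gene EIF2AK3. The rule found 54 genes among 56969 rows. Initiation factors bring the initiator tRNA, the messenger RNA and the ribosomal subunits together. eIF2 carries the initiator tRNA with GTP, and eIF2B reloads eIF2 with GTP and is blocked when stress kinases phosphorylate eIF2. eIF3 is a large scaffold on the small subunit, the eIF4 group reads the cap and unwinds the message, and eIF5, eIF5B and eIF6 act in start-site selection, subunit joining and subunit release.

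HepG2, an established human liver cancer cell line, was reverse transfected with control siRNA or with HCF-1 siRNA, transfected again after 2 days and harvested 2 days later. HCF-1, encoded by HCFC1, is a chromatin-bound transcription cofactor. Each group had 8 libraries, called biological replicates in the labels. No vehicle-only or untreated cells entered the comparison, and all 16 libraries come from 1 cell line. Values are normalized counts, that is, reads divided by a library size factor.

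HCFC1 ran from 4851 to 6878 normalized counts in the control libraries and from 3112 to 4171 after HCF-1 siRNA, without overlap. Libraries held 21030830 to 32820459 reads in the control group and 25098840 to 43186890 reads in the HCF-1 siRNA group (two-sided exact permutation p = 0.0375). Summed normalized counts were also higher in every HCF-1 siRNA library, at 28433667 to 28847697 against 27883841 to 28242586. All 10 hepatocyte markers passed the filter. Their summed level was 755882 to 818788 in control and 894526 to 1064076 in HCF-1 siRNA libraries. Of these 10, 7 rose and 1, FGB, fell, beside 18.2% of all genes tested that rose and 18.3% that fell. Of 7 blood cell markers 4 passed the filter and CD3E and HBB were listed at 0. The blood list summed to 27933 to 32653 in control and 28901 to 35107 with HCF-1 siRNA, nearly all of it LYZ. Of 4 endothelial markers 2 passed the filter, KDR and TEK were listed at 0, and the sums were 82.0 to 159.9 and 94.6 to 157.6. Of 6 mesenchymal markers 4 passed the filter, COL1A1 fell, and the sums were 2562 to 3341 and 2541 to 3282. With reads thinned to the smallest library, 26 of the 28 calls on initiation factor genes given below were kept. What part the shift in hepatocyte markers has in them was not tested. In a bulk measurement, fewer cells of one kind and less RNA per cell cannot be told apart.

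With HCF-1 siRNA, initiation factor genes changed in both directions, also within the eIF2, eIF3 and eIF4 groups. In eIF2B the only gene called higher, EIF2B5, lost its call in 15 of 27 alternatives, and in eIF5 both genes called higher, EIF5 and EIF5B, lost it with total-count scaling. Of the 53 members with a mean of 10 or more, 13 rose, 15 fell and 25 did not pass (limma with Benjamini-Hochberg adjustment over all genes, adjusted p under 0.05). Called members made up 52.8% of those tested, against a background of 36.6% of all 16081 genes tested. Those that rose made up 24.5% (background 18.2%) and those that fell 28.3% (background 18.3%). Initiation factor genes are highly expressed, and among the 5488 genes with a mean of 1000 or more 47.9% were called, against 28 of the 44 members above that level (63.6%). The changes were small. Among called members the absolute log2 fold change ran from 0.085 to 0.67 with a median of 0.22, and 1 called member, EIF4A2, changed by 1.5-fold or more. The median log2 fold change over the 53 members was 0.0091, against 0.0064 over all genes. The summed level of all 54 genes was 354812 ± 3028 normalized counts in control and 352441 ± 5389 in HCF-1 siRNA libraries (mean and SD, n = 8 each), 99.3% of the control level. With edgeR on recovered reads 11 rose and 15 fell (background 36.4% called, 17.4% higher and 19.0% lower), and with DESeq2 13 rose and 15 fell (background 38.9% called, 19.7% higher and 19.3% lower). With total-count scaling, which divides by the higher sums of the HCF-1 siRNA libraries, 8 rose and 17 fell, beside 16.1% of all genes higher and 21.1% lower. For 7 members the groups did not overlap (13.2% of those tested, background 9.82%). They were higher for EIF4A2 and EIF4B (background 4.59%) and lower for EIF2B1, EIF3I, EIF3K, EIF3C and EIF5A (background 5.23%).

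**Figure D1:**
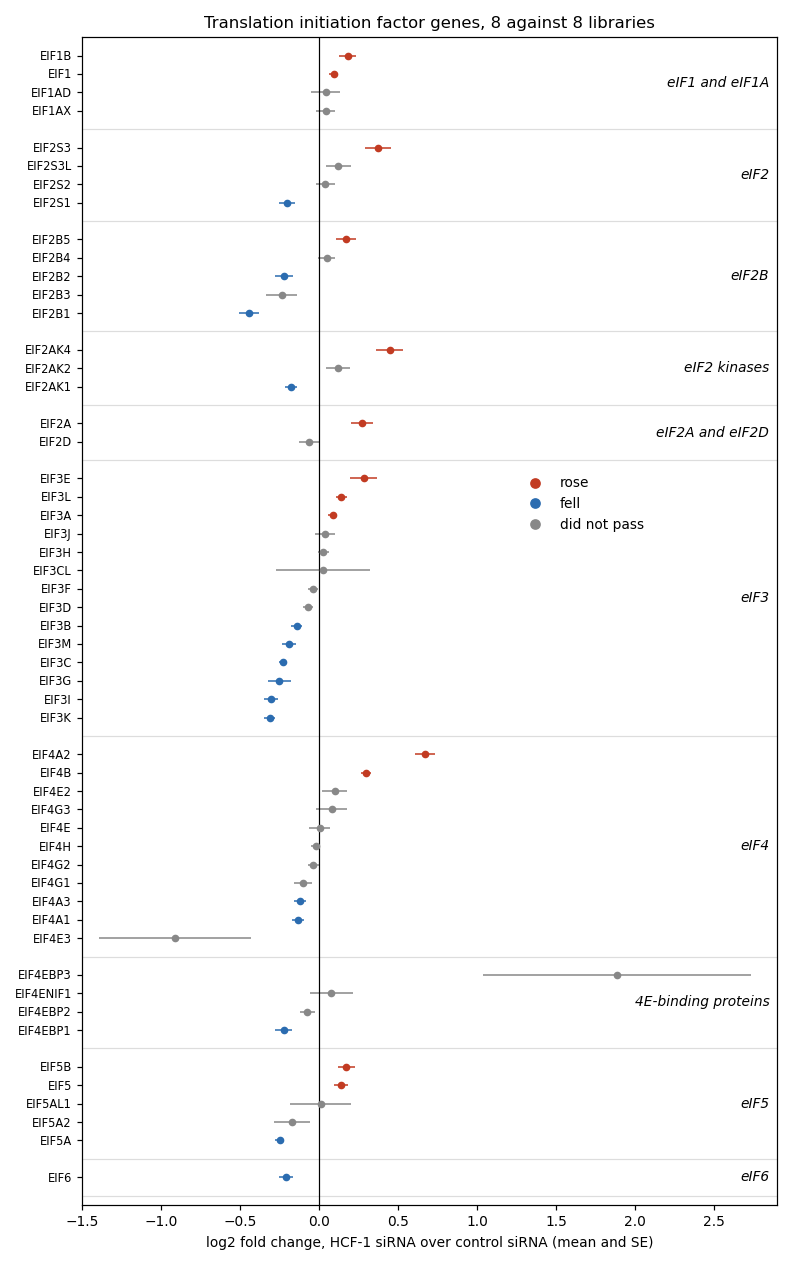
Log2 fold change after HCF-1 siRNA, relative to control, and its SE (x axis) for the 53 tested members, ordered within each list. Red points rose, blue points fell and grey points did not pass, and both colours appear in the eIF2, eIF2B, eIF3, eIF4 and eIF5 lists.

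**Figure D2:**
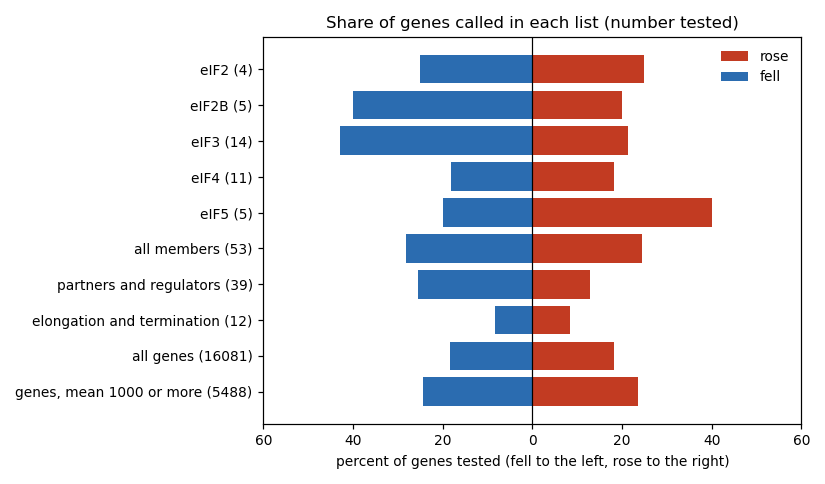
Percent of tested genes that fell (left, blue) or rose (right, red) in each list, with the number tested in parentheses, beside all genes and genes with a mean of 1000 or more. eIF3 had 42.9% lower and 21.4% higher, and eIF5 had 1 of 5 genes lower and 2 of 5 higher.

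Promoter windows from RefSeq (GRCh38.p14, 250 bases before to 50 after the annotated start) were found for 45 of the 54 members and searched on both strands. The core CCGGAAG, bound by ETS factors such as GABPA, a family whose sites often lie beside HCF-1 at promoters, was in 11 of 45 member windows (24.4%). It was in 18.8% of the windows of the 11140 tested genes that have one, and in 10.7% of all 27305 windows. By call, 5 of 12 members that fell held it, 1 of 10 that rose and 5 of 22 that did not pass. Over all tested genes the core was in 23.1% of windows of genes that fell and 14.9% of those of genes that rose. The 5 members that fell and hold the core are shown because they span eIF2B, eIF3 and eIF6, with the core in capitals on either strand, and EIF2A is shown as the one that rose. Each is written 5′ to 3′ on the gene's strand.
EIF2B1, chr12:123633677-123633746, minus strand: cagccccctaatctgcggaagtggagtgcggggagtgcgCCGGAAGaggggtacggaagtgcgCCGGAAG
EIF2B2, chr14:75002861-75002925, plus strand: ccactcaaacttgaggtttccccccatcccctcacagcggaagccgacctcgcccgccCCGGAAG
EIF3I, chr1:32222328-32222406, plus strand: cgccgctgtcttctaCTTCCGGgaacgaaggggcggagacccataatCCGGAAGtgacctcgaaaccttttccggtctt
EIF3M, chr11:32583771-32583830, plus strand: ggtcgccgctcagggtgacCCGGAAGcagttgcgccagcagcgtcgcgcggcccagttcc
EIF6, chr20:35284787-35284843, minus strand: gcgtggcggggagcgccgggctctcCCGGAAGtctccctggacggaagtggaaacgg
EIF2A, chr3:150546644-150546700, plus strand: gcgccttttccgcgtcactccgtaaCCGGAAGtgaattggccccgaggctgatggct
EIF2B1 and EIF3I each hold the core at 2 positions, and these 2 genes are also among those whose groups did not overlap. The other members without overlap, EIF4A2, EIF4B, EIF3K, EIF3C and EIF5A, had windows that lack the core. A link between the core and the change was not tested. The element ACTACA, any 2 bases and then TCCC, known from promoters bound by THAP11 and ZNF143 with HCF-1, was in 2 of 45 member windows (4.44%) and in 4.02% of windows of tested genes. The 2 windows belong to EIF1B, which rose, and EIF2B4, which did not pass, and the match is in capitals.
EIF1B, chr3:40309594-40309655, plus strand: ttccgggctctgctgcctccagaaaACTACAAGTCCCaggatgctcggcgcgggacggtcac
EIF2B4, chr2:27370529-27370588, minus strand: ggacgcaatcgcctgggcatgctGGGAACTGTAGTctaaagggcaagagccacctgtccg
The YY1 core AAGATGGCG was in the windows of EIF4E and EIF2B5 (2 of 45, against 3.84% of tested genes), and the E-box CACGTG was in 12 of 45 (26.7%, against 10.0% of tested genes). Of the 12 members with an E-box, 2 rose, 2 fell and 8 did not pass. Over all tested genes the E-box was in 11.0% of windows of genes that rose, 10.5% of those that fell and 9.55% of those not passing. A match describes letters in the window and was not measured as binding here.

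eIF1 and eIF1A keep the scanning ribosome open until a start codon is found. EIF1 and EIF1B, which encode closely related forms of eIF1, both rose slightly. EIF1B ran from 994.4 to 1235 normalized counts in control (median 1061) and from 1115 to 1292 after HCF-1 siRNA (median 1254), a log2 fold change of 0.18 ± 0.05 (SE; limma adjusted p = 0.0122). All 8 HCF-1 siRNA libraries lay above the control median, although the groups overlapped. EIF1 ran from 9585 to 10600 in control (median 10159) and from 10260 to 11287 after HCF-1 siRNA (median 10740), a log2 fold change of 0.09 ± 0.03 (adjusted p = 0.0204). The call on EIF1 ended with total-count scaling (0.06, adjusted p = 0.116) and with no filter on low genes (adjusted p = 0.0673). EIF1AX (0.04 ± 0.06) and EIF1AD (0.04 ± 0.09), which encodes a protein with an eIF1A domain, did not pass.

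Of the 3 subunits of eIF2, EIF2S3 rose, EIF2S1 fell and EIF2S2 did not pass. EIF2S3, the gamma subunit that binds GTP and the initiator tRNA, ran from 4805 to 6387 normalized counts in control (median 5512) and from 6335 to 9172 after HCF-1 siRNA (median 6789). Its log2 fold change was 0.37 ± 0.08 (limma adjusted p = 0.00156), and every HCF-1 siRNA library lay above the control median. EIF2S1, the alpha subunit that the stress kinases phosphorylate, ran from 2276 to 2764 in control (median 2509) and from 1964 to 2370 after HCF-1 siRNA (median 2263). It fell, with a log2 fold change of -0.20 ± 0.05 (adjusted p = 0.00287) and all 8 HCF-1 siRNA libraries below the control median. EIF2S2, the beta subunit, did not pass (0.04 ± 0.06). EIF2S3L, a near copy of EIF2S3 with a mean of 202.9 in control, did not pass (0.12 ± 0.08), and reads of EIF2S3 and its copy may be split between them. Together the eIF2 list had 1 higher, 1 lower and 2 not passing (background 36.6% called, 18.2% higher and 18.3% lower), with a median log2 fold change of 0.08.

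eIF2B, the exchange factor for eIF2, had 1 subunit gene higher, 2 lower and 2 not passing of 5 (background 36.6% called), with a median log2 fold change of -0.22. EIF2B1, the regulatory alpha subunit, ran from 1400.4 to 1632 normalized counts in control (median 1561) and from 976 to 1290 after HCF-1 siRNA (median 1147). The groups did not overlap, and the log2 fold change was -0.44 ± 0.06 (limma adjusted p = 3.10e-05), a level of 73.8% of control. EIF2B2, the regulatory beta subunit, ran from 1047 to 1314 in control (median 1131) and from 896 to 1151 after HCF-1 siRNA (median 988). It fell with a log2 fold change of -0.22 ± 0.06 (adjusted p = 0.00710), with 7 of 8 HCF-1 siRNA libraries below the control median. EIF2B4, the regulatory delta subunit, did not pass (0.05 ± 0.05). EIF2B5, the epsilon subunit that carries the exchange activity, had a log2 fold change of 0.17 ± 0.06 (adjusted p = 0.0477). That call ended in 15 of 27 alternatives, among them edgeR, upper-quartile and total-count scaling, reads thinned to the smallest library, the replicate block, and leaving out 1 of control libraries 3, 4, 5, 7 and 8 or 1 of HCF-1 siRNA libraries 2, 4, 5 and 8 (adjusted p between 0.0569 and 0.109 in those 15, and down to 0.0231 in the others). EIF2B3, the gamma subunit, did not pass (-0.24 ± 0.10, adjusted p = 0.0654) but passed in 6 alternatives, namely total-count scaling, the replicate block, and without control library 3 or 8 or HCF-1 siRNA library 5 or 7 (adjusted p between 0.0253 and 0.0498 in those 6, and up to 0.128 in the others). The summed level of the 5 genes was 7808 ± 441 in control and 7380 ± 278 in HCF-1 siRNA libraries, 94.5% of control. Exons on the opposite strand overlap up to 14.8% of the EIF2B1 and 20.2% of the EIF2B2 exon length, and the sources used here do not say whether counting used strand. Called members of other lists have smaller opposite-strand overlaps, among them EIF4B (11.9% of exon length), EIF5B (10.8%), EIF3M (10.0%), EIF5A (8.6%) and EIF4A2 (7.1%).

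Of the eIF2 kinase genes, EIF2AK4, which encodes the amino acid sensor GCN2, ran from 2718 to 4075 normalized counts in control (median 3319) and from 3844 to 5273 after HCF-1 siRNA (median 4656). It rose with a log2 fold change of 0.45 ± 0.09 (limma adjusted p = 6.24e-04), and all 8 HCF-1 siRNA libraries were above the control median. EIF2AK1, the haem-regulated kinase HRI, ran from 9958 to 11029 in control (median 10572) and from 8241 to 10093 after HCF-1 siRNA (median 9379), and fell (-0.18 ± 0.04, adjusted p = 0.00214). EIF2AK2, the double-stranded RNA kinase PKR, did not pass (0.12 ± 0.08). Among these 3 kinase genes the control level per kilobase of exon was highest for EIF2AK1 at 1902 normalized counts, then EIF2AK4 at 279 and EIF2AK2 at 156. Their order was the same after HCF-1 siRNA (1682, 379.6 and 169). EIF2AK3 was left out by the rule. EIF2A, an initiation factor distinct from eIF2, ran from 2962 to 3748 in control (median 3444) and from 3624 to 4944 after HCF-1 siRNA (median 4087), and rose (0.27 ± 0.07, adjusted p = 0.00557). EIF2D, which can deliver tRNA without GTP and acts in ribosome recycling, did not pass (-0.07 ± 0.06).

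**Figure D3:**
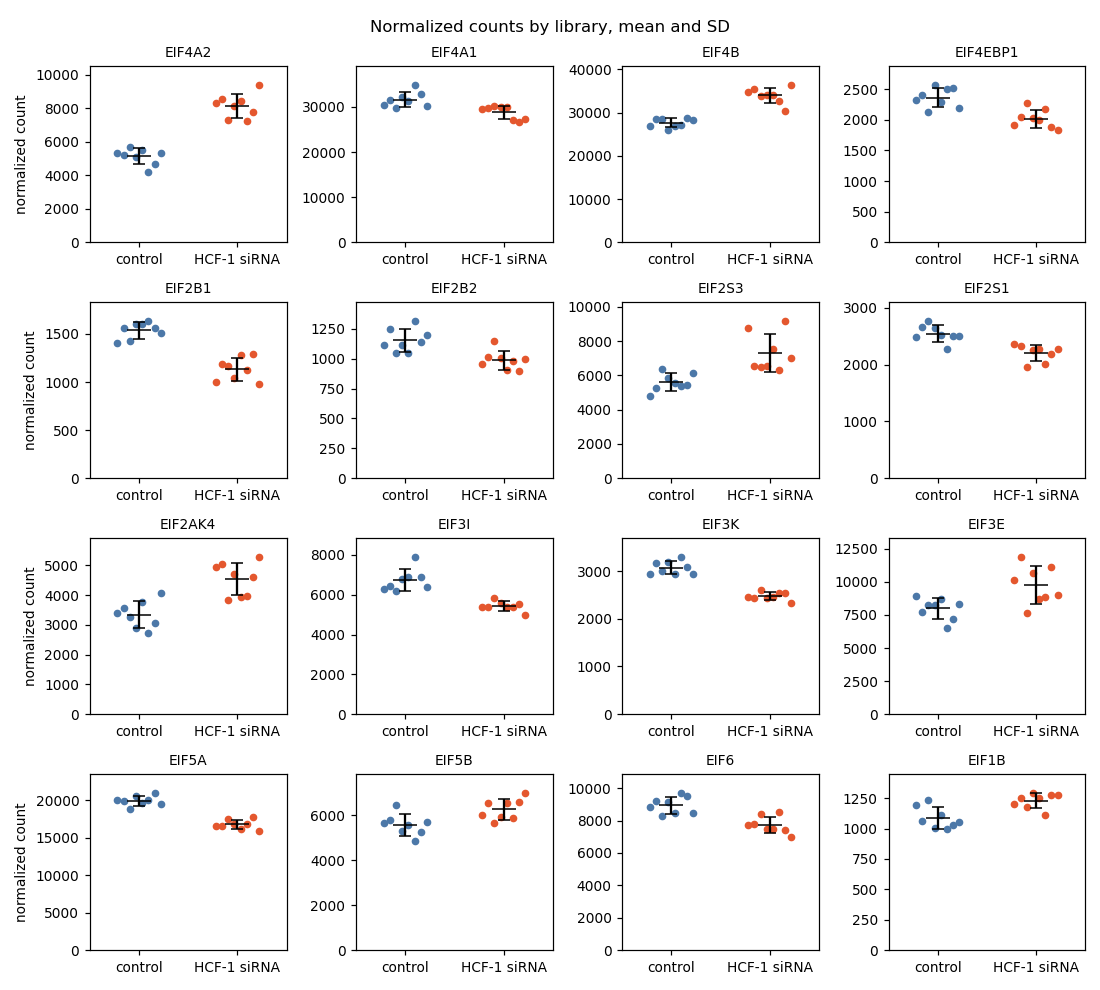
Normalized counts (y axis, from 0) of 16 members in each of the 8 control siRNA (blue) and 8 HCF-1 siRNA (red) libraries, with the mean and SD in black. EIF4A2, EIF4B, EIF2B1, EIF3I, EIF3K and EIF5A show no overlap between the groups, and the other panels show shifts with overlapping points.

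eIF3 had 3 subunit genes higher, 6 lower and 5 not passing of 14 (64.3% called, background 36.6%, or 47.9% of genes with a mean of 1000 or more), with a median log2 fold change of -0.06. Its summed level went from 116408 ± 2116 to 110510 ± 1803 normalized counts, 94.9% of control. Most of that fall was in EIF3C, with means of 36241 in control and 30874 after HCF-1 siRNA. The level of EIF3C is uncertain, as described below. EIF3K, a small subunit of the core octamer, ran from 2934 to 3291 in control (median 3052) and from 2327 to 2600.5 after HCF-1 siRNA (median 2456), with no overlap (-0.31 ± 0.04, limma adjusted p = 3.37e-06). EIF3I, a WD-repeat subunit near the mRNA entry side, ran from 6168 to 7886 in control (median 6622) and from 4966 to 5824 after HCF-1 siRNA (median 5398), again with no overlap (-0.30 ± 0.05, adjusted p = 6.57e-05). Both fell to about the same share of control, 80.5% for EIF3K and 80.8% for EIF3I. EIF3E, a subunit with a PCI domain, ran from 6501 to 8926 in control (median 8275) and from 7687 to 11875 after HCF-1 siRNA (median 9575). It rose (0.28 ± 0.08, adjusted p = 0.0144), with 7 of 8 HCF-1 siRNA libraries above the control median.

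The genes of eIF3b, eIF3g and eIF3i, which sit together at the edge of the complex, were all 3 called lower, with EIF3G at -0.25 ± 0.07 and EIF3B at -0.14 ± 0.04. This grouping by structure was made after the values were seen and was not tested, and 24.4% of all genes with a mean of 1000 or more were called lower. Of the 8 genes of the core octamer, 3 rose (EIF3E, EIF3L at 0.14 ± 0.03 and EIF3A at 0.08 ± 0.03), 3 fell (EIF3K, EIF3C at -0.23 ± 0.03 and EIF3M at -0.19 ± 0.05), and EIF3F (-0.04 ± 0.03) and EIF3H (0.03 ± 0.03) did not pass. The call on EIF3A ended in 12 of 27 alternatives, including edgeR, thinned reads, and the fits without control library 1, 6 or 7 or HCF-1 siRNA library 1, 5 or 8 (adjusted p between 0.0510 and 0.155 in those 12, and down to 0.00651 in the others). EIF3D (-0.07 ± 0.03), a subunit that can bind the cap, and EIF3J (0.04 ± 0.06), a loosely bound subunit, did not pass. EIF3D passed without HCF-1 siRNA library 3 (-0.09, adjusted p = 0.0363) and with total-count scaling (-0.10, adjusted p = 0.0232). EIF3C had 5191 normalized counts per kilobase of exon in control, above the 3893 of EIF3I and the 3081 of EIF3L, the next highest eIF3 subunits. EIF3CL, a near-identical copy of EIF3C, varied from 270 to 1407 in control and from 424 to 1078 after HCF-1 siRNA (0.02 ± 0.30, not passing), and the sources used here do not say how reads were divided between the copies. Values for EIF3C and EIF3CL are therefore uncertain. EIF3L shares exonic bases with AL022311.1 on the same strand and ANKRD54 on the opposite strand. The larger overlap covers 41.1% of the EIF3L exon length, so EIF3L is uncertain too.

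In the eIF4 list 2 genes rose, 2 fell and 7 of the 11 tested did not pass. Called genes made up 36.4%, beside 36.6% of all genes and 47.9% of genes with a mean of 1000 or more. The largest change of all called members was in EIF4A2, one of the paired RNA helicases of the cap-binding complex. EIF4A2 ran from 4218 to 5678 normalized counts in control (median 5248) and from 7258 to 9373 after HCF-1 siRNA (median 8241). The groups did not overlap, and the log2 fold change was 0.67 ± 0.06 (limma adjusted p = 4.66e-07), a level of 159% of control. EIF4A1, the more abundant helicase, went the other way, from 29862 to 34813 in control (median 31347) and from 26592 to 30224 after HCF-1 siRNA (median 29636). It fell with a log2 fold change of -0.14 ± 0.04 (adjusted p = 0.00888), and all 8 HCF-1 siRNA libraries lay below the control median. Per kilobase of exon EIF4A1 went from 5947 to 5415 normalized counts and EIF4A2 from 836 to 1328. AC016876.2 and the readthrough gene SENP3-EIF4A1 share exonic bases with EIF4A1 on the same strand. The larger overlap covers 41.1% of the EIF4A1 exon length, so the level of EIF4A1 is uncertain. EIF4A3, the related helicase of the exon junction complex, fell (-0.12 ± 0.04, adjusted p = 0.0223), a call that ended with no filter on low genes (adjusted p = 0.0679).

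Within a library, the log2 ratio of EIF4A2 to EIF4A1 was -3.04 to -2.39 in control and -2.05 to -1.54 in HCF-1 siRNA libraries, with no overlap. A ratio within a library does not depend on how libraries are scaled, but this one carries the uncertainty in the level of EIF4A1. The EIF4A2 count was 16.3% ± 2.2 of the EIF4A1 count in control and 28.4% ± 2.9 after HCF-1 siRNA (mean and SD, n = 8 each), a difference in log2 ratio of 0.81 ± 0.09. A two-sided exact permutation test gave p = 1.55e-04, the lowest possible with 12870 splits, and an adjusted p of 9.32e-04 over the 6 pairs compared. The letters TATAA, in capitals, stand at nearly the same place in both promoters. They begin 30 bases before the annotated start in EIF4A2 and 29 in EIF4A1, shown because the 2 genes changed in opposite directions.
EIF4A1, chr17:7572765-7572824, plus strand: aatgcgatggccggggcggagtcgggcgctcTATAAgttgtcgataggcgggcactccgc
EIF4A2, chr3:186783517-186783576, plus strand: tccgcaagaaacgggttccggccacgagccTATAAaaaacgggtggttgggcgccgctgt
TATAA, searched on both strands after these windows were read, was in 8 of 45 member windows (17.8%) and in 11.2% of windows of tested genes. EIF1 and EIF4B also held it at 28 bases before the start. EIF4H, which did not pass, held it on the opposite strand at 29 bases before the start. Neither helicase window held any of the other motifs searched.

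EIF4B, which stimulates the eIF4A helicases, ran from 25972 to 28789 normalized counts in control (median 27721) and from 30460 to 36311 after HCF-1 siRNA (median 34053). It rose without overlap between the groups, with a log2 fold change of 0.30 ± 0.03 (limma adjusted p = 3.75e-06). EIF4H, a related helper of eIF4A, did not pass (-0.02 ± 0.03). The scaffold genes did not pass, with EIF4G1 at -0.10 ± 0.06, EIF4G3 at 0.08 ± 0.10 and EIF4G2, which encodes a scaffold that lacks the EIF4E-binding region, at -0.04 ± 0.04. EIF4G1 ran from 16323 to 20051 in control (median 18034) and from 14922 to 19302 after HCF-1 siRNA (median 16479). EIF4G3 ran from 1378 to 2245 in control (median 1733) and from 1571 to 2144 after HCF-1 siRNA (median 1782). The groups of both scaffolds overlapped widely. EIF4E, the cap-binding protein, ran from 1589 to 1987 in control (median 1841) and from 1657 to 2264 after HCF-1 siRNA (median 1849), a log2 fold change of 0.0015 ± 0.06. EIF4E2, a cap-binding relative that represses translation, ran from 2715 to 3985 in control (median 3343) and from 3172 to 4160 after HCF-1 siRNA (median 3413), a log2 fold change of 0.10 ± 0.08. Neither cap-binding gene passed. EIF4E3 rested on few reads (4 to 66 a library), with 13.6 to 73.3 in control and 2.88 to 68.3 after HCF-1 siRNA (-0.92 ± 0.48, adjusted p = 0.149). Over the alternatives its log2 fold change ran from -1.26 to -0.54. EIF4E3 passed without HCF-1 siRNA replicate 2, the library at 68.3 (-1.26, adjusted p = 0.0209). EIF4E1B was listed at 0 in all control libraries and at most 0.877 in HCF-1 siRNA libraries and was not tested.

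The 4E-binding proteins hold EIF4E away from the scaffold when mTOR is inactive. EIF4EBP1 ran from 2120.0 to 2565 normalized counts in control (median 2358) and from 1828 to 2269 after HCF-1 siRNA (median 2011). It fell with a log2 fold change of -0.23 ± 0.05 (limma adjusted p = 0.00254), and all 8 HCF-1 siRNA libraries lay below the control median. EIF4EBP2 ran from 3505 to 4216 in control (median 3800.1) and from 3389 to 3853 after HCF-1 siRNA (median 3606) and did not pass (-0.07 ± 0.05). EIF4ENIF1, which shuttles EIF4E into the nucleus, did not pass (0.08 ± 0.14). EIF4EBP3 was listed at 0 in 3 control libraries and reached 57.8 in another, against 12.2 to 46.4 after HCF-1 siRNA. Its log2 fold change of 1.89 ± 0.85 did not pass (adjusted p = 0.0918). That value is a difference of mean logs that includes the 3 libraries at 0. It ran from 0.52 with edgeR to 2.31 over the alternatives, and the mean after HCF-1 siRNA was 148% of the control mean. EIF4EBP3 passed without control siRNA replicate 3 or 8, and the readthrough gene ANKHD1-EIF4EBP3 covers 73.4% of its exon length, so its level is uncertain.

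**Figure D4:**
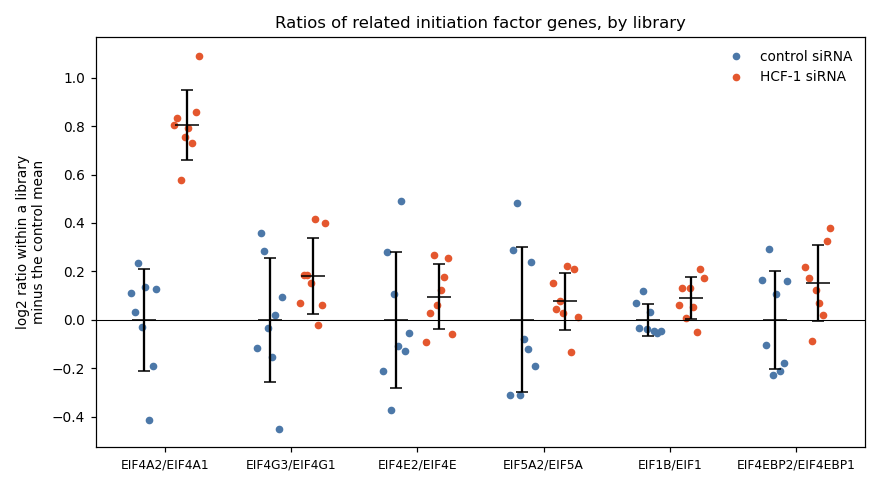
Log2 ratio of each pair of related genes within a library, minus the control mean (y axis), in 8 control siRNA (blue) and 8 HCF-1 siRNA (red) libraries, with the mean and SD in black. The groups stand apart for EIF4A2 over EIF4A1, at a mean difference of 0.81, and overlap for the other 5 pairs.

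For the other 5 pairs the ratio did not pass the exact permutation test after adjustment over the 6 pairs. The difference in log2 ratio was 0.18 ± 0.11 for EIF4G3 over EIF4G1 (adjusted p = 0.172), 0.10 ± 0.11 for EIF4E2 over EIF4E (0.482) and 0.08 ± 0.11 for EIF5A2 over EIF5A (0.51). It was 0.15 ± 0.09 for EIF4EBP2 over EIF4EBP1 (exact permutation adjusted p = 0.172). For EIF1B over EIF1 it was 0.09 ± 0.04, with a raw exact permutation p of 0.0401 and an adjusted p of 0.12. That pair passed without control siRNA replicate 3 (0.11, exact permutation adjusted p = 0.0466) and without HCF-1 siRNA replicate 6 (0.11, adjusted p = 0.0392).

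In the eIF5 list 2 genes rose, 1 fell and 2 did not pass (background 36.6% called). EIF5A, which helps ribosomes through difficult stretches and carries the modified amino acid hypusine, ran from 18885 to 20982 normalized counts in control (median 19944) and from 15962 to 17780 after HCF-1 siRNA (median 16726). It fell with no overlap between the groups, with a log2 fold change of -0.25 ± 0.03 (limma adjusted p = 3.66e-06). EIF5B, the GTPase of subunit joining, ran from 4855 to 6470 in control (median 5603) and from 5631 to 6980.0 after HCF-1 siRNA (median 6258), and rose (0.17 ± 0.06, adjusted p = 0.0211). EIF5, which activates GTP hydrolysis on eIF2, rose (0.14 ± 0.04, adjusted p = 0.0219), with all 8 HCF-1 siRNA libraries above the control median, as for EIF5B. Both calls ended with total-count scaling (EIF5 at 0.11, adjusted p = 0.0694, and EIF5B at 0.14, adjusted p = 0.0558). EIF5A2, the minor form of eIF5A, ran from 172 to 282 in control (median 198) and from 163 to 219.5 after HCF-1 siRNA (median 190), and did not pass (-0.17 ± 0.11). EIF5AL1, a near copy of EIF5A with a control mean of 90.3, did not pass (0.0091 ± 0.19) and may share reads with EIF5A. The summed level of the list was 31832 ± 567 in control and 29923 ± 615 after HCF-1 siRNA, most of it EIF5A.

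EIF6, which keeps the large ribosomal subunit from joining too early, ran from 8265 to 9701 normalized counts in control (median 8973) and from 7013 to 8508 after HCF-1 siRNA (median 7612). It fell with a log2 fold change of -0.21 ± 0.04 (limma adjusted p = 0.00124), and all 8 HCF-1 siRNA libraries lay below the control median. Exons of AL121753.1 overlap 17.4% of its exon length on the same strand.

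Some member genes carry small nucleolar RNA genes inside them, which are released from introns and guide RNA modification. By GENCODE release 29, 7 members host at least 1 such gene, of which EIF4A2 hosts 5, EIF4A1 3, EIF3A and EIF1AX 2 each and EIF4G1, EIF4G2 and EIF5 1 each. Of these 7 hosts, 3 rose, 1 fell and 3 did not pass. The share called was 36.6% of all genes and 47.9% of genes with a mean of 1000 or more.

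Beside the factors themselves, 39 partners and regulators of initiation were tested, of which 5 rose, 10 fell and 24 did not pass (38.5% called, background 36.6%), with a median log2 fold change of -0.03. PAIP2B, an inhibitor of poly(A)-binding protein, ran from 51.9 to 70.9 normalized counts in control (median 62.8) and from 26.1 to 47.3 after HCF-1 siRNA (median 34.5), and fell (-0.83 ± 0.14, limma adjusted p = 2.30e-04). EFTUD1, which with SBDS removes eIF6 from the large subunit, ran from 382 to 1126 in control (median 712) and from 220 to 664 after HCF-1 siRNA (median 434). It fell with a wide spread (-0.66 ± 0.23, adjusted p = 0.0360). RPS6KB2, a kinase of the S6 kinase family, ran from 1561 to 2085 in control (median 1813) and from 1135 to 1499 after HCF-1 siRNA (median 1249), and fell (-0.52 ± 0.07, adjusted p = 1.40e-05). IMPACT, an inhibitor of the kinase encoded by EIF2AK4, ran from 242 to 398 in control (median 342) and from 176 to 339 after HCF-1 siRNA (median 232), and fell (-0.46 ± 0.13, adjusted p = 0.0106). The 5 that rose, named after their values were seen, included both regulatory subunits of the phosphatase that reverses eIF2 phosphorylation. These were PPP1R15A (0.18 ± 0.07, limma adjusted p = 0.0478) and PPP1R15B (0.16 ± 0.04, adjusted p = 0.00800), both with overlapping groups. Among the genes for the catalytic subunit of that phosphatase, PPP1CA fell (-0.37 ± 0.06, limma adjusted p = 6.99e-05). PPP1CB (-0.05 ± 0.05) and PPP1CC (-0.12 ± 0.06) did not pass. The remaining genes that fell were MCTS1 (-0.40 ± 0.08), MKNK1 (-0.36 ± 0.09), BZW2 (-0.30 ± 0.04), CYFIP1 (-0.19 ± 0.07) and DENR (-0.15 ± 0.05). For 4 partners and regulators, PAIP2B, RPS6KB2, MCTS1 and BZW2, the groups did not overlap (10.3%, background 9.82%). The other genes that rose were the S6 kinase gene RPS6KB1 (0.25 ± 0.08, limma adjusted p = 0.0192) and the RNA helicase gene DDX3X (0.11 ± 0.03, adjusted p = 0.0188). The poly(A)-binding protein gene PABPC1 also rose (0.08 ± 0.03, adjusted p = 0.0428). Whether calls on partners and regulators hold under the alternatives was not examined.

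Of 12 tested elongation and termination factor genes, 1 rose, 1 fell and 10 did not pass (16.7% called, background 36.6%). EEF1A2, the minor form of the elongation factor that delivers tRNA, ran from 75.6 to 117 normalized counts in control (median 93.5) and from 50.7 to 65.4 after HCF-1 siRNA (median 59.1), and fell (-0.68 ± 0.11, limma adjusted p = 1.23e-04). EEF1B2, an exchange factor for that protein, ran from 18470 to 20552 in control (median 18833) and from 19517 to 21210 after HCF-1 siRNA (median 20057), and rose slightly (0.08 ± 0.03, adjusted p = 0.0310). GSPT2 was below the filter in both groups.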

How the data were processed

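RNA libraries were stranded mRNA libraries per the labels' protocols. The deposited signal is a normalized count for each Ensembl gene in each library. Per the submitters' processing notes, the authors used hg19, DESeq2 1.16.1, featureCounts 1.4.4, STAR 2.4.1d and cutadapt 1.4.2. The sources used here do not give the annotation release, strand setting or filters. All values were whole multiples of 1 step per library (100% within 0.001 read), so whole reads were recovered. 1 column name lacks a digit of its title.

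Groups were compared with limma 3.58.1 (R 4.3.3) on log2(normalized count + 1), with trend and robust options, on the 16081 genes averaging at least 10. Fold changes are on that scale, where the pseudocount shrinks differences between low values; being means of logs, they can exceed the ratio of group means where single libraries are at or near 0. Benjamini-Hochberg adjustment ran over all genes tested, with calls under 0.05. Related pairs were compared with exact permutation tests. On recovered reads edgeR 4.0.16 called 5853 genes and DESeq2 1.42.0 called 6258. Other alternatives were pseudocounts of 0.5 and 10, no filter, a filter at 50, 2 scalings, array weights, the replicate number as a block, each library left out, and, chosen after seeing the data, reads thinned to the smallest library. No 2 libraries agreed within sampling noise. The limma step was tested on simulated data.

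Members and lists were chosen with earlier results of these data known. Every tested member is named. Ranges over libraries are given for up to 3 called members of largest change in eIF3 and eIF4, up to 2 in other lists, each pair, and up to 4 in each list of partners. Exon lengths and overlaps came from GENCODE release 29 (GRCh38) by gene identifier. A length merges the exons of all transcripts of a gene and can differ from the annotation used for counting, so levels per kilobase are approximate.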

Additional observations from a re-analysis of the deposited data

Results flagged for a closer look

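In 7 of 114 groups of 8 values, 1 library stood apart, with a gap to its nearest neighbour that was large relative to the spread of all 8 (Dixon's test). Chance alone picks about 1 in 20 groups. For EIF3I, control siRNA replicate 6 held 7886 normalized counts, while the others held 6168 to 6896. EIF2B4 had 3018 in the same library, against 2312 to 2634. EIF2B4 also had 2285 in HCF-1 siRNA replicate 7, against 2619 to 2873. EIF2B2 had 1151 in HCF-1 siRNA replicate 3, against 896 to 1011. EIF3C had 32786 in that library, against 29991 to 30893. EIF4E3 had 68.3 in HCF-1 siRNA replicate 2, against 2.88 to 19.3. EIF1AD had 543 in control siRNA replicate 7, against 701 to 809. The calls on EIF3I, EIF2B2 and EIF3C held without these libraries.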

How the results depend on the processing

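Of the 28 called members, 22 kept their call under all 27 alternatives and none reversed; EIF1, EIF2B5, EIF3A, EIF4A3, EIF5 and EIF5B lost it at least once, and 4 of 25 others (EIF2B3, EIF3D, EIF4E3 and EIF4EBP3) gained one. With total-count scaling 8 members rose, against 13. With the replicate block 11 rose and 16 fell (all genes 16.9% higher and 17.2% lower), with EIF2B5 and EIF3A lost. With no filter EIF1, EIF2B5, EIF3A and EIF4A3 were lost. Same-numbered libraries were not paired by the data (correlations of deviations -0.0738 to 0.0976), and 1 of 8 numbers had its own partner as the best match. With 1 library left out, 11 to 13 members rose and 15 to 16 fell, and the list medians ran from -0.111 to -0.0428 for eIF3 (-0.111 without control siRNA replicate 1), from -0.0991 to 0.101 for eIF5 (-0.0991 without control siRNA replicate 3) and from -0.0125 to 0.0239 for all members. The median over all members was -0.0314 with edgeR. The EIF4A2 to EIF4A1 difference was 0.746 to 0.839 with 1 library left out, and the EIF1B to EIF1 difference 0.0727 to 0.11. For EIF4A2 to EIF4A1 the adjusted p was at most 0.0469 over all alternatives, with the replicate block. That block used sign flips over the 8 replicate numbers, and this value comes from the lowest p such flips can give. The median of all genes was -0.0218 with total-count scaling and 0.0064 as deposited. Depth limits EIF4E3, EIF4EBP3 and EIF4E1B, whose values rest on few reads.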

Other observations

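Pseudogenes that carry initiation factor names also hold reads. Of 52 in the table, 8 passed the filter. EIF2S2P4 had means of 1534 ± 315 normalized counts in control and 1476 ± 318 in HCF-1 siRNA libraries (n = 8 each), and EIF3FP3 had 409 ± 32.2 and 373 ± 44.5. EIF1AXP1 had 268 ± 31.1 and 307 ± 45.6. These 3 did not pass. EIF4A1P10 fell from 27.1 ± 10.7 to 14.3 ± 2.89 (log2 fold change -0.79 ± 0.25, limma adjusted p = 0.0200). None of the other tested pseudogenes was called, beside 36.6% of all genes called. The remaining ones were EIF4BP6 (0.0067 ± 0.34), EIF4BP7 (-0.21 ± 0.17), EIF4HP1 (0.24 ± 0.24) and EIF2S2P3 (-0.33 ± 0.32). How reads were divided between these copies and their parent genes is unknown.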
